A study of Canis lupus familiaris with 5 samples.

Results

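Proliferating erythroblasts are nucleated red cell precursors that make hemoglobin while they still divide. In 3 whole bone marrow libraries from dogs they were taken as barcodes that passed 3 limits. A barcode needed at least 200 detected genes and at most 10% of its UMIs (unique molecular identifiers, each a tagged transcript) from mitochondrial genes. It needed at least 0.5% of its UMIs from AHSP, HBM and CA1 together, and at least 5 UMIs from MKI67 and TOP2A together. AHSP encodes the chaperone of free alpha globin, HBM the globin chain mu and CA1 a red cell carbonic anhydrase, while MKI67 and TOP2A are made in dividing cells. The rule gave 930 members among 16223 barcodes of whole marrow that passed the gene and mitochondrial limits, and among 24708 such barcodes of all 5 libraries (27953 were deposited). The members were thus chosen by measured levels of these 5 genes, and those levels are given as a description with no test.

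The marrow was flushed from femurs kept on ice, and red cells were lysed with an ammonium-chloride-potassium buffer. All samples are primary cells labelled with the genotype Wt; age, sex and breed are not given in the sources used here. Whole marrow was loaded unsorted from samples 1, 2 and 3 where viability exceeded 70% and neutrophils were under 25% by flow cytometry, and viable CD34+ cells sorted from 2 of the 3 samples made 2 further libraries. CD34 marks stem and progenitor cells. Nothing in the labels says that the 3 samples came from separate dogs, so p-values measure the spread between these samples.

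In erythropoiesis, erythropoietin acting on its receptor carries committed progenitors through a short series of divisions in which GATA1 and KLF1 switch on the globin, heme and membrane genes. Growth genes of the progenitor, such as KIT and MYB, are shut down along this series, cells become smaller at each division, and the nucleus is condensed and expelled after the last one. The membrane skeleton of spectrin, ankyrin and band 3 is assembled in the same window.

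The 5 libraries held 46114431 to 70169186 UMIs and 4880 to 7896 deposited barcodes each. Pairs of libraries shared 3 to 11 kept barcode sequences, and no member barcode occurred among the members of another library. Whole marrow 1 stood apart in a set of genes: of 3797 features at 20 CPM or more in the members (CPM is the UMIs of a feature per 1000000 UMIs of the group in that library), 75 were at least 4-fold lower in whole marrow 1 than in both other libraries. The same count was 0 for whole marrow 2. Of 51 of those features that could be read in proliferating myelocytes, 43 were at least 4-fold lower there too. GAPDH (90.1, 456 and 361 CPM in the members of whole marrow 1, 2 and 3), UBE2C and NFE2 belong to that set. Comparisons among whole marrow barcodes below are therefore made within each library. Levels of the CD34-sorted barcodes come from other libraries and are set beside the members across libraries.

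Members made up 4.50% of the kept barcodes of whole marrow 1 (328 of 7295, exact binomial 95% interval 4.03 to 5.00%). The share was 8.31% in whole marrow 2 (381 of 4585, 7.53 to 9.15%) and 5.09% in whole marrow 3 (221 of 4343, 4.45 to 5.78%). Whole marrow 2 lay above both others, whose intervals overlapped. The intervals cover counting error only, and the part of viability and red cell lysis in these shares was not tested. In the CD34-sorted libraries 1 of 4720 kept barcodes met the rule in sorted library 1 and 0 of 3765 in sorted library 2. The exact binomial 95% interval of sorted library 2 reaches up to 0.0979%. Members held 27.9, 37.7 and 29.8% of all UMIs of the kept barcodes. Their median depth was 44454, 42846 and 60358 UMIs, against 2694, 3689 and 4344 UMIs over all kept barcodes of the same libraries. They carried a median of 3839, 3866 and 4374 genes, and a median of 4.82, 4.30 and 5.32% mitochondrial UMIs. Members were 80.2, 93.2 and 88.0% of all barcodes over the erythroid limit, so few erythroblasts in these libraries had fewer than 5 UMIs of MKI67 and TOP2A. They were 30.3, 38.4 and 28.05% of all kept barcodes over the proliferation limit.

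**Figure D1:**
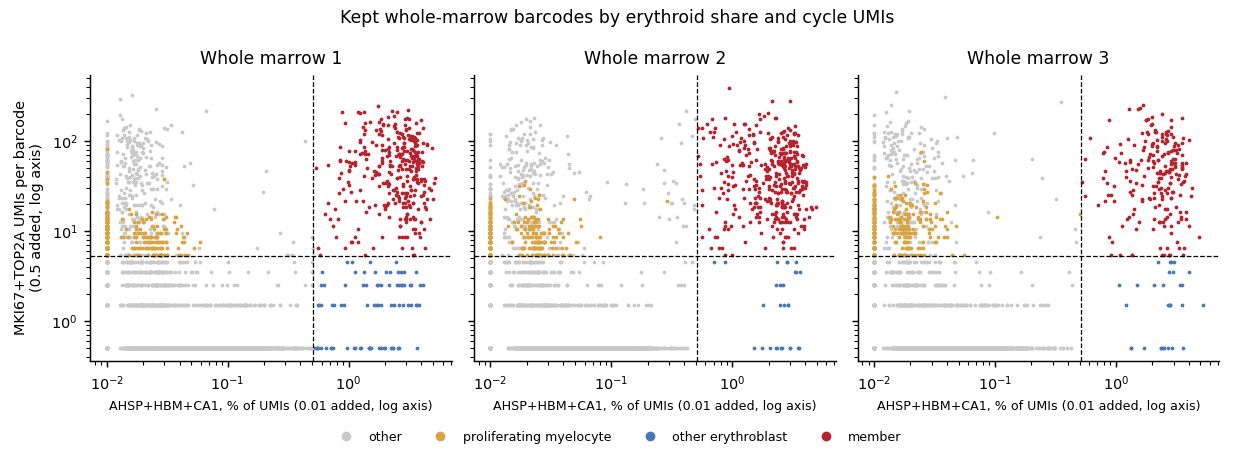
Each kept barcode of the 3 whole marrow libraries by the percent of its UMIs from AHSP, HBM and CA1 (horizontal log axis, 0.01 added) and its UMIs of MKI67 and TOP2A (vertical log axis, 0.5 added); dashed lines are the 2 limits and colours mark members, other erythroblasts, proliferating myelocytes and other barcodes. The 328, 381 and 221 members fill the upper right corner, and the 81, 28 and 30 other erythroblasts lie below them.

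Near the erythroid limit, 12 proliferating barcodes lay just outside (0.4 to 0.5%) and 15 just inside (0.5 to 0.6%), with median depths of 54207 and 57009 UMIs. Near the proliferation limit, 30 erythroid barcodes had 3 or 4 UMIs of MKI67 and TOP2A and a median of 5796 UMIs, and 32 had 5 or 6 and a median of 27602 UMIs. The proliferation limit is in raw UMIs, so a shallow barcode passes it less easily. The mitochondrial limit alone removed 14, 8 and 19 barcodes that met the other limits.

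The rule genes had the following levels, which the rule itself sets. AHSP stood at 11439, 8589 and 9160 CPM in the members of whole marrow 1, 2 and 3, HBM at 8736, 9324 and 9118 CPM, and CA1 at 4146, 2507 and 3322 CPM. MKI67 stood at 872, 750 and 561 CPM and TOP2A at 522, 454 and 402 CPM. The label was checked on ALAS2, the 1 marker that is no part of the rule and that catalyses the entry step of heme synthesis in red cells; it stood at 700, 746 and 647 CPM. In proliferating myelocytes of the same libraries (dividing neutrophil precursors, described below) ALAS2 stood at 0.971, 4.32 and 2.15 CPM and HBM at 23, 40.3 and 46.7 CPM, taken here as the background level. No row of the files carries the symbols of the adult alpha and beta globins. The highest features in the members carried only Ensembl identifiers: ENSCAFG00000030286 at 79738, 83978 and 80260 CPM and ENSCAFG00000032615 at 47798, 80010 and 71336 CPM. Together they took 12.8, 16.4 and 15.2% of all member UMIs, against 136, 273 and 221 CPM and 102, 207 and 236 CPM in the myelocytes.

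Markers of other cell types were compared by list. In the members the summed level of 10 macrophage markers was 14.3 to 29.6 CPM with 7 of the 10 under 1 CPM, and that of 5 megakaryocyte markers 2.60 to 10.0 CPM. All 7 T and NK cell markers and all 7 eosinophil, basophil and mast cell markers were under 1 CPM. Neutrophil granule markers were not near 0: 11 of them summed to 2587, 1242 and 2207 CPM in the members, against 243817, 241787 and 276078 CPM in the myelocytes. The 4 neutrophil progenitor markers summed to 853, 530 and 1118 CPM, against 62906, 45511 and 55319 CPM in the myelocytes. The 8 B and plasma cell markers summed to 7777, 6491 and 7218 CPM in the members, above the 6119, 5692 and 5691 CPM over all kept barcodes of the same libraries. Nearly all of that sum was CD79A (7763, 6487 and 7205 CPM), while CD79B and MS4A1, which also mark B cells, were at or under 0.42 CPM. Of the members, 12, 20 and 13 were called as doublets by a caller that compares barcodes with simulated pairs.

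The earlier cells taken from these data were the CD34-sorted barcodes with at least 3 UMIs of GATA1 and KLF1 together (221 and 299 barcodes, median depth 17440 and 19842 UMIs). These are the master transcription factors of the red cell lineage. The group also carried markers of other lineages. Its 5 megakaryocyte markers summed to 53.5 and 109 CPM, against 2.60 to 10.0 CPM in the members. Its 7 eosinophil, basophil and mast cell markers summed to 62.6 and 112 CPM, against 0.527 to 3.13 CPM in the members. Levels of the sorted barcodes are given beside those of the members without a test, since sorting, depth and the choice by GATA1 and KLF1 separate them. GATA1 was already at 244 and 233 CPM in the sorted barcodes and stood at 312, 296 and 336 CPM in the members. KLF1 was at 82.3 and 108 CPM and stood at 413, 473 and 452 CPM in the members. The erythropoietin receptor EPOR was at 74.5 and 115 CPM in the sorted barcodes and at 241, 241 and 251 CPM in the members. The progenitor genes had the opposite order. CD34 was at 145 and 93.2 CPM in the sorted barcodes and at 0.686, 0.236 and 0.376 CPM in the members. KIT, the stem cell factor receptor, was at 70.1 and 102 CPM against 5.15, 3.67 and 2.63 CPM. CCND2, a G1 cyclin, was at 83.2 and 91.6 CPM against 0.412, 0.828 and 0.602 CPM.

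Genes of hemoglobin synthesis had lower levels in the sorted barcodes, where 20 heme genes summed to 772 and 849 CPM against 5675, 6558 and 5770 CPM in the members. ALAS2 was at 5.60 and 0.157 CPM in the sorted barcodes and HBM at 61.8 and 0.314 CPM. The group of sorted library 1 includes the 1 barcode that met the member rule. That barcode had 26861 UMIs, 2.13% of them from AHSP, HBM and CA1, and its part in these levels was not tested. SOX6, a transcription factor of definitive red cells, was at 0.243 and 0 CPM in the sorted barcodes against 62.3, 67.4 and 48.9 CPM in the members. RHAG, the red cell ammonia channel subunit, was at 54.3 and 55.8 CPM in the sorted barcodes and at 121, 191 and 107 CPM in the members. CA2, a carbonic anhydrase, stood at 1616 and 2044 CPM against 3851, 4500 and 4525 CPM. NPM1, a nucleolar chaperone of ribosome assembly, was higher in both sorted libraries (2148 and 2723 CPM) than in the members of any library (1099, 836 and 960 CPM).

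**Figure D2:**
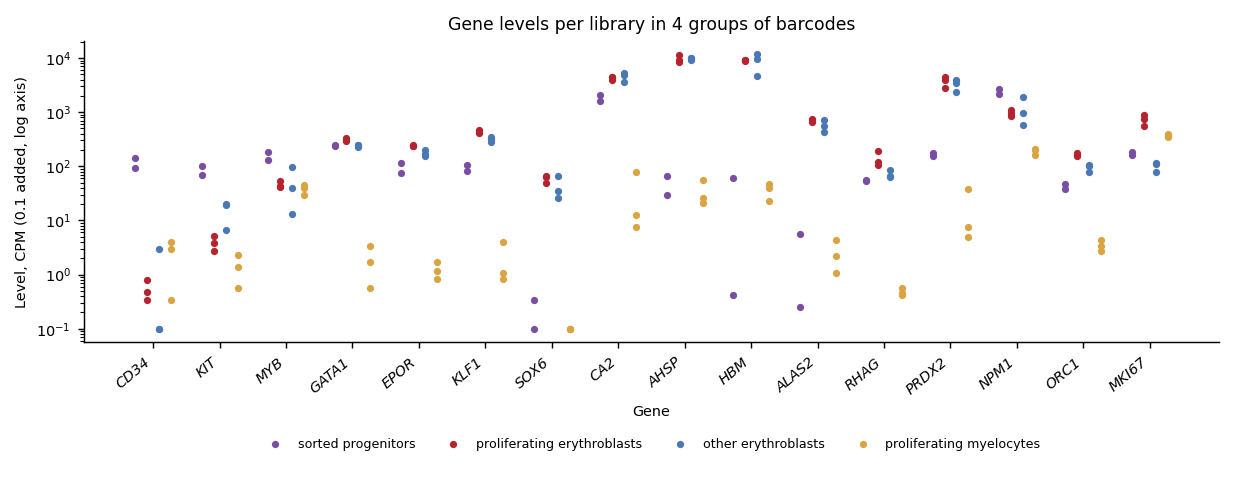
Level of 16 genes in CPM (log axis, 0.1 added), 1 point per library, in sorted GATA1 and KLF1 barcodes (2 libraries), members, other erythroblasts and proliferating myelocytes (3 libraries each). CD34 and KIT are highest in the sorted barcodes, while HBM, ALAS2, RHAG and SOX6 are higher in both erythroblast groups than in the myelocytes, where HBM lies between 23 and 46.7 CPM.

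What the members share with other dividing marrow cells was asked by setting them against proliferating myelocytes: kept barcodes under the erythroid limit, with at least 0.5% of UMIs from the granule gene CAMP and at least 5 UMIs of MKI67 and TOP2A (340, 292 and 291 barcodes). UMIs were summed per library and group and compared within libraries with edgeR's quasi-likelihood test and Benjamini-Hochberg adjustment at 0.05. Of 8460 features tested, 3300 (39.0%) were higher and 2825 (33.4%) lower in the members, 72.4% in either direction, and the median log2 fold change was 0.15. Counts in a gene list are read against these shares. The myelocytes were shallower (median 7415, 8203 and 12544 UMIs), so the same limit in raw UMIs asked more of them; MKI67 and TOP2A together stood at 1395, 1204 and 963 CPM in the members and at 960, 998 and 886 CPM in the myelocytes.

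DNA replication genes were higher in the members, and many mitosis genes were lower with the scaling of the main fit. Of 50 replication genes tested, 43 were higher and 0 lower, with a median log2 fold change of 1.38. ORC1, a subunit of the complex that marks replication origins, stood at 155, 165 and 173 CPM in the members and at 3.24, 4.32 and 2.62 CPM in the myelocytes (log2 fold change 5.12 ± 0.19 SE, adjusted p = 4.5e-14 by edgeR's quasi-likelihood test). The groups were far apart in every library. MCM6, part of the replicative helicase, stood at 241, 249 and 278 CPM against 25.6, 47.5 and 49.8 CPM (2.16 ± 0.15). CDC6, which loads that helicase, stood at 78.7, 78.9 and 84.8 CPM against 5.50, 7.20 and 10.5 CPM (2.85 ± 0.18). Thymidine kinase TK1 stood at 479, 440 and 356 CPM against 39.8, 62.6 and 58.6 CPM (2.47 ± 0.16). The S-phase cyclin CCNE1 was low in both groups but separate, at 13.7, 30.1 and 29.3 CPM against 0, 1.08 and 0.238 CPM. Thymidylate synthase TYMS (adjusted p = 0.093, edgeR) and ribonucleotide reductase subunit RRM2 (adjusted p = 0.25, edgeR) did not pass, with log2 fold changes of 0.26 and 0.17; with plain library sizes TYMS passed at 0.77.

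Of 66 mitosis genes tested (MKI67 and TOP2A not among them), 13 were higher and 37 lower, with a median log2 fold change of -0.35. Their summed levels overlapped, at 8067, 7864 and 6974 CPM in the members and 7485, 8264 and 6845 CPM in the myelocytes. NUSAP1, a spindle microtubule protein, stood at 98.5, 121 and 83.4 CPM in the members and at 333, 397 and 235 CPM in the myelocytes (log2 fold change -2.17 ± 0.11). Cyclin CCNB2 stood at 111, 120 and 109 CPM against 291, 272 and 301 CPM (-1.86 ± 0.12). CEP55, a protein of the bridge between daughter cells, stood at 7.83, 8.99 and 5.79 CPM against 55.0, 51.8 and 34.6 CPM (-3.15 ± 0.17). All 3 were lower in every library. Among those higher, the kinetochore motor CENPE stood at 395, 380 and 236 CPM against 131, 136 and 113 CPM (0.86 ± 0.12), and the kinetochore protein CENPF at 767, 695 and 498 CPM against 389, 367 and 257 CPM (0.43 ± 0.10). With MKI67 and TOP2A at 0.1% of UMIs or more required in both groups, replication genes were higher in 46 of 48 tested and mitosis genes higher in 10 and lower in 30 of 66. The direction of the mitosis median rested on the scaling: with plain library sizes 26 mitosis genes were higher, 21 lower, the median was 0.17, and the median over all features moved to 0.66, while replication genes went from 43 to 49 higher of 50.

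Genes of cell growth formed a second group above the myelocytes. Of 26 ribosome biogenesis genes, 22 were higher and 0 lower (median log2 fold change 1.92). NOP56, a core protein of the particles that modify ribosomal RNA, stood at 228, 202 and 204 CPM against 19.7, 32.7 and 24.6 CPM (2.54 ± 0.15), and NPM1 at 1099, 836 and 960 CPM against 200, 212 and 162 CPM (1.82 ± 0.12). Of 21 genes of polyamine and nucleotide synthesis, 17 were higher and 2 lower (median 2.19). IMPDH2, the enzyme that commits purines to guanine nucleotides, stood at 783, 614 and 768 CPM against 70.6, 71.6 and 63.4 CPM (2.87 ± 0.12). AMD1, which makes the aminopropyl donor of polyamines, stood at 73.7, 64.8 and 63.9 CPM against 8.74, 7.56 and 6.67 CPM (2.62 ± 0.17). One of the 2 lower genes was OAZ1, the antizyme that restrains polyamine synthesis, at 981, 927 and 904 CPM against 1603, 1541 and 1569 CPM (-1.26 ± 0.10). Ribosomal protein genes were split, with 25 higher and 14 lower of 56; with plain library sizes 47 were higher and 2 lower.

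Glycolysis genes were mostly lower. Of 15 tested, 4 were higher and 10 lower, with a median log2 fold change of -2.34. ENO1, the common enolase, stood at 51.2, 29.3 and 41.9 CPM in the members and at 1097, 979 and 1077 CPM in the myelocytes (-5.24 ± 0.13), and TPI1 at 256, 244 and 204 CPM against 869, 704 and 679 CPM (-2.19 ± 0.11). GPI, which makes fructose 6-phosphate, stood at 3.36, 9.64 and 9.18 CPM against 92.9, 315 and 301 CPM (-5.48 ± 0.14). The 4 higher genes include the isoenzymes of the red cell. PKLR, the pyruvate kinase of liver and red cells, stood at 107, 89.7 and 94.9 CPM against 0.324, 1.08 and 0 CPM. PFKM, the phosphofructokinase subunit of muscle and red cells, stood at 97.8, 90.4 and 96.6 CPM while the myelocyte sums held 1 UMI of it in all. HK1, the hexokinase of red cells, stood at 229, 221 and 195 CPM against 73.1, 71.2 and 52.0 CPM (1.21 ± 0.12).

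Of 18 genes that handle peroxide 9 were higher and 5 lower, close to the 39.0 and 33.4% of all features, so single genes are given. PRDX2, the abundant red cell peroxiredoxin, stood at 2827, 4520 and 3894 CPM against 4.85, 37.8 and 7.63 CPM (7.60 ± 0.71, adjusted p = 0.0085, edgeR), and glutathione peroxidase GPX1 at 2399, 2167 and 2007 CPM against 78.3, 76.6 and 50.5 CPM (4.50 ± 0.13). Catalase, the gene CAT, stood at 105, 130 and 166 CPM against 363, 372 and 361 CPM (-1.99 ± 0.13), and NQO1, a quinone reductase, at 3.23, 3.61 and 3.99 CPM against 84.8, 124 and 106 CPM (-5.37 ± 0.15). Of 35 genes of oxidative phosphorylation, 17 were higher and 12 lower, a median of 0.26. With plain library sizes 21 were higher and 3 lower, with a median of 0.78 beside 0.66 over all features.

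Of 28 chromatin and nucleus genes, 16 were higher and 8 lower (median 0.50). LMNA, which encodes the A-type lamins of the nuclear envelope, stood at 233, 378 and 316 CPM against 0.971, 2.88 and 0.477 CPM (7.37 ± 0.24). DEK, a chromatin protein, stood at 650, 788 and 686 CPM against 120, 171 and 128 CPM (1.84 ± 0.11). HMGB2 (-1.49 ± 0.11) and the histone variant gene H2AZ1 (-1.76 ± 0.11) were lower in all 3 libraries. Among cyclins and their partners, 6 of 20 were higher and 7 lower, and 9 and 5 with plain library sizes, where the median moved from -0.20 to 0.31. The G1 kinase CDK4 stood at 265, 264 and 273 CPM against 50.8, 79.1 and 78.4 CPM (1.45 ± 0.13), and the retinoblastoma gene RB1 at 61.9, 65.2 and 49.1 CPM against 10.4, 15.1 and 9.53 CPM (1.83 ± 0.17).

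**Figure D3:**
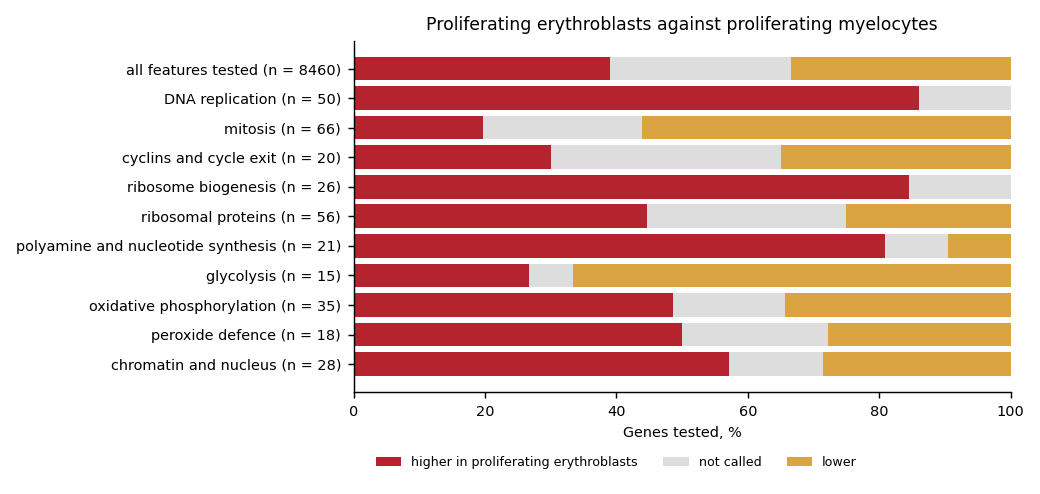
Percent of the tested genes of each list, and of all 8460 features, that were higher, not called or lower in members than in proliferating myelocytes (edgeR, adjusted p under 0.05; 1 stacked bar per list). Replication and ribosome biogenesis have no lower gene, while glycolysis has 10 lower of 15.

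Erythroid genes separate these groups by the way they were cut and are given without p. SPTB, the beta chain of spectrin, stood at 122, 119 and 88.6 CPM in the members and had no UMI in the myelocyte sums, which makes it at least 373-fold higher against a floor of 3 UMIs over the group. SOX6 also had no UMI there and was at least 202-fold higher. EPB42, protein 4.2, stood at 48.9, 81.9 and 59.7 CPM, with 1 UMI in the myelocytes. SLC4A1, the anion exchanger band 3, was still low in the members at 15.2, 28.7 and 15.1 CPM. The first step of heme synthesis used different genes in the groups: the housekeeping ALAS1 stood at 14.4, 14.4 and 20.01 CPM in the members and at 389, 369 and 349 CPM in the myelocytes, the reverse of ALAS2.

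The members were next set against the other erythroblasts of their library, barcodes over the erythroid limit with fewer than 5 UMIs of MKI67 and TOP2A (81, 28 and 30). These were small and shallow, with median depths of 2357, 2953 and 4454 UMIs and median mitochondrial shares of 1.30, 0.125 and 0.0803%, and 18, 6 and 6 of them were called as doublets. Neutrophil granule markers summed to 17283, 9353 and 1172 CPM in them, against 2587, 1242 and 2207 CPM in the members. The 4 neutrophil progenitor markers summed to 2210, 193 and 4156 CPM in them, against 853, 530 and 1118 CPM in the members. The comparison made 271 calls, 140 without called doublets and 0 after thinning every barcode to 2000 UMIs. The thinned fit held only 2 libraries and 2402 features. The part of the neutrophil markers of the other erythroblasts in the results was not tested. Of 7760 features tested by edgeR, 142 (1.83%) were higher and 129 (1.66%) lower in the members, 3.49% in either direction, with a median log2 fold change of 0.07.

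Mitosis genes led the higher features, which the limit on MKI67 and TOP2A sets up, so they are values only. ASPM, a spindle pole protein, stood at 291, 299 and 223 CPM in the members and at 49.9, 33.3 and 25.6 CPM in the other erythroblasts. CENPF stood at 767, 695 and 498 CPM against 172, 146 and 102 CPM. The 66 mitosis genes summed to 8067, 7864 and 6974 CPM in the members and to 3805, 3368 and 3331 CPM in the others. They hold 40 of the 142 higher features, a count that the limit sets up and that is no result. Of 50 replication genes 2 were called higher, near the 1.83% of all features. TYMS, for example, stood at 444, 403 and 397 CPM in the members and at 472, 366 and 444 CPM in the others, overlapping.

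Of 20 heme genes 0 passed in either direction, against 3.49% of all features, with a median log2 fold change of 0.15; a count this near the background is no result about heme genes. ALAS2 stood at 700, 746 and 647 CPM against 427, 719 and 555 CPM (0.24 ± 0.13, adjusted p = 0.49, edgeR). A set of membrane genes was higher, 6 of 24 with 0 lower (median 0.24). ANK1, ankyrin, stood at 93.8, 147 and 107 CPM in the members and at 53.4, 79.9 and 42.7 CPM in the others (0.90 ± 0.24), with no overlap. RHAG stood at 121, 191 and 107 CPM against 63.7, 86.5 and 65.4 CPM (0.81 ± 0.22), and the water channel AQP1 at 465, 533 and 535 CPM against 287, 346 and 333 CPM (0.57 ± 0.15). ADD2 and CD47 also passed. Within the members the skeleton share rose with the mitosis share (Spearman rho 0.49, 0.41 and 0.39). Whether the limit on MKI67 and TOP2A also sets up these membrane differences was not tested, so no p is given. All 6 calls were lost without whole marrow 1, without the library as a block, with DESeq2 and after thinning every barcode to 2000 UMIs.

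The transferrin receptor TFRC, which brings in iron, stood at 227, 293 and 176 CPM in the members and at 157, 220 and 79.7 CPM in the others (0.59 ± 0.18, adjusted p = 0.037, edgeR). Of 20 transcription factors, LDB1, the bridging cofactor of the GATA1 complex, was higher (112, 120 and 117 CPM against 67.1, 53.3 and 48.4 CPM; 0.92 ± 0.23) and the myeloid factor SPI1 was lower (8.17, 5.50 and 9.86 CPM against 62.0, 33.3 and 8.53 CPM; -2.15 ± 0.47). The order of SPI1 held in whole marrow 1 and 2 only. The other erythroblasts of these libraries had the higher granule marker sums, but their neutrophil progenitor markers were highest in whole marrow 3. The part of neutrophil RNA in the SPI1 difference was not tested. DIAPH3, a formin that builds actin filaments, stood at 88.1, 82.1 and 67.1 CPM against 29.3, 39.9 and 22.8 CPM (1.38 ± 0.30). Whether the limit on MKI67 and TOP2A also sets up this difference was not tested, so no p is given. KIT was lower in the members (5.15, 3.67 and 2.63 CPM against 18.9, 6.66 and 19.9 CPM). Its log2 fold change was -2.18 ± 0.60 (adjusted p = 0.012, edgeR). The 10 leading lower genes were EMB (-2.81), MMP9 (-2.48), RGS2, PRSS57, NFKBID, S100A11, MGST1, ALOX5AP, GMFG and CTSS (-2.09). MMP9 is one of the neutrophil granule markers. The part of neutrophil RNA in these differences, that of KIT among them, was not tested. Ribosomal protein genes had 0 higher and 5 lower of 56, and with plain library sizes 0 lower. LDB1, SPI1, TFRC, DIAPH3 and KIT all lost their calls without whole marrow 1 and without the library as a block. LDB1, TFRC and KIT also lost them with DESeq2, and LDB1, TFRC and DIAPH3 after thinning, where SPI1 and KIT were not tested.

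The members were not uniform. Within each library they were ordered by the share of UMIs from 27 membrane skeleton genes and cut into terciles (110, 109 and 109 members in whole marrow 1, 127 in each of whole marrow 2, and 74, 74 and 73 in whole marrow 3). The order is a range, not a set of types, and was compared without a test. From the lower to the upper tercile the skeleton genes, which set the order, went from 2565 to 5654 CPM in whole marrow 1, from 3180 to 6335 CPM in whole marrow 2 and from 2816 to 5300 CPM in whole marrow 3. Along the same order the median depth went from 50736 to 40644, from 49225 to 38886 and from 66323 to 50291 UMIs. The median mitochondrial share went from 6.20 to 3.44%, from 5.86 to 3.01% and from 6.49 to 4.29%. The 2 features with only an identifier took 3.95, 5.57 and 6.31% of UMIs in the lower tercile and 23.6, 29.6 and 26.4% in the upper one.

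Shares add up to a fixed total, so a larger share of these 2 features lowers the others. Of 4779 features at 10 CPM or more, 742 (15.5%) were higher in the upper than in the lower tercile in all 3 libraries and 3288 (68.8%) lower, with a median log2 ratio of -0.45. With totals that leave out the 2 features and AHSP, HBM and CA1, 1638 were higher, 2026 lower and the median was -0.06. Ratios below use all UMIs and are log2 of upper over lower tercile with 1 CPM added, as a mean ± SD over 3 libraries.

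Hemoglobin and heme genes were higher in the upper tercile. HBM went from 2529 through 8498 to 16556 CPM across the terciles of whole marrow 1, from 2622 through 10002 to 17386 CPM in whole marrow 2 and from 3864 through 9475 to 15458 CPM in whole marrow 3 (2.48 ± 0.42). Of 16 heme genes at 10 CPM or more, 14 were higher and 1 lower in all 3 libraries (median 0.74). ALAS2 went from 366 through 713 to 1093 CPM, from 415 through 815 to 1106 CPM and from 404 through 673 to 927 CPM (1.39 ± 0.19). SLC25A37, the mitochondrial iron importer mitoferrin, had the ratio 2.51 ± 0.08, the porphyrin enzyme CPOX 1.77 ± 0.27 and ferrochelatase FECH 1.44 ± 0.07. SOX6 went from 17.6 to 120 CPM, from 25.6 to 120 CPM and from 16.9 to 80.8 CPM (2.36 ± 0.29). GATA1 was flat, at 298, 314 and 327 CPM in whole marrow 1, at 300, 309 and 277 CPM in whole marrow 2 and at 329, 373 and 298 CPM in whole marrow 3 (-0.04 ± 0.15); with the other totals its ratio was 0.37. EPOR had the ratio 0.05 ± 0.08. AHSP had the smaller ratio 0.74, and both carbonic anhydrase genes were lower in the upper tercile (CA1 -0.77, CA2 -0.72).

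Mitosis genes were also higher in the upper tercile, 54 of 63 with 4 lower (median 0.51), and replication genes less evenly, 19 of 45 with 13 lower (median 0.16; 37 and 2 with the other totals). RRM2 went from 119 through 229 to 379 CPM in whole marrow 1, from 114 through 209 to 322 CPM in whole marrow 2 and from 113 through 209 to 305 CPM in whole marrow 3 (1.53 ± 0.12). CENPF had the ratio 1.09 ± 0.04. Cyclins and cell cycle brakes divided. CCND3, known from mice as the D cyclin that sets the number of erythroid divisions, went from 4.36 to 20.8 CPM, from 7.91 to 35.7 CPM and from 5.41 to 22.1 CPM (1.97 ± 0.11), while CCND1 went from 33.2 to 0.692 CPM, from 27.996 to 0.997 CPM and from 22.5 to 1.35 CPM (-3.84 ± 0.51). RB1 (1.72 ± 0.12), GADD45A (1.35 ± 0.09) and the kinase inhibitor CDKN1B (1.12 ± 0.28) were higher in the upper tercile, and CDK4 (-0.81 ± 0.07) was lower.

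Many growth genes were lower in the upper tercile. MYB, the transcription factor of dividing progenitors, went from 82.7 through 32.1 to 5.997 CPM, from 82.2 through 23.5 to 5.18 CPM and from 88.2 through 49.0 to 11.9 CPM (-3.38 ± 0.51). KIT went from 12.3 to 0 CPM, from 8.52 to 0 CPM and from 6.24 to 0 CPM, and MYC had the ratio -1.47 ± 0.44. Of 26 ribosome biogenesis genes 25 were lower and 0 higher (median -1.33; 23 lower with the other totals). NPM1 went from 1894 through 987 to 261 CPM, from 1592 through 521 to 179 CPM and from 1659 through 791 to 272 CPM (-2.87 ± 0.27). Of 18 polyamine and nucleotide genes 16 were lower and 1 higher (median -1.05). The spermidine synthase SRM had the ratio -2.94 ± 0.26, ODC1 -2.22 ± 0.35 and the mitochondrial serine enzyme SHMT2 -3.86 ± 0.54. All 56 ribosomal protein genes at 10 CPM or more were lower, with a median of -0.43 that became -0.02 with the other totals (16 higher, 22 lower). Of 10 glycolysis genes 8 were lower and 1 higher (median -1.48). PFKM was the higher gene and went from 62.6 to 136 CPM, from 64.7 to 117 CPM and from 67.8 to 118 CPM (0.91 ± 0.17).

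**Figure D4:**
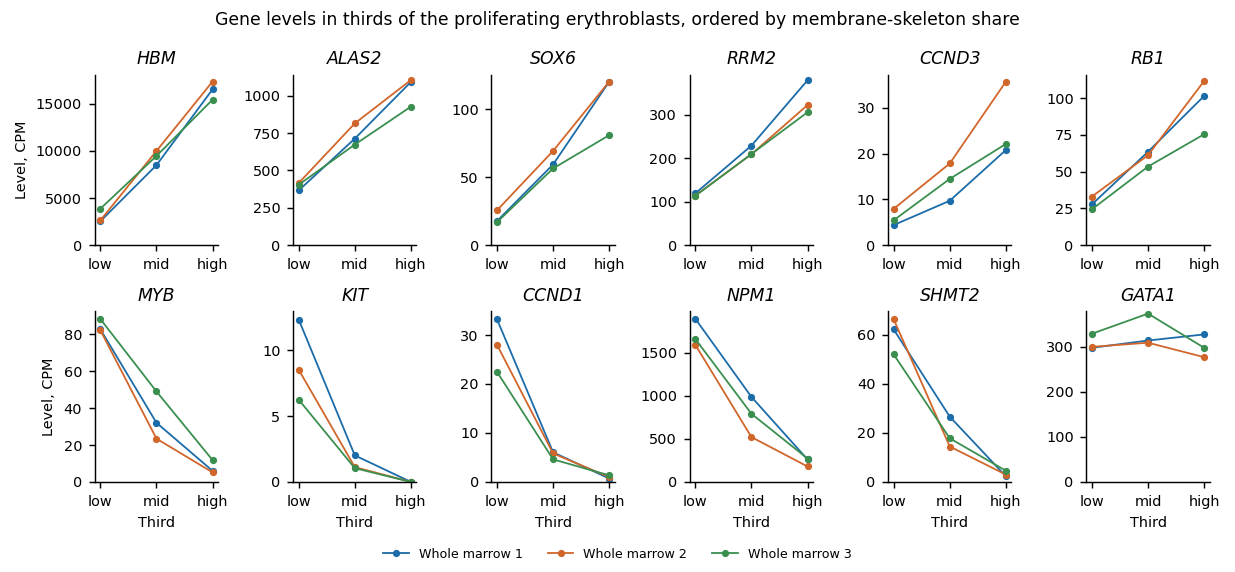
Level in CPM (linear axis) of 12 genes across the lower, middle and upper tercile of members, 1 line per whole marrow library. Members are ordered by the share of membrane skeleton UMIs. HBM, ALAS2, SOX6, RRM2, CCND3 and RB1 are higher in the upper tercile in all 3 libraries, MYB, KIT, CCND1, NPM1 and SHMT2 are lower, and GATA1 lies between 277 and 373 CPM.

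Neutrophil genes were highest in the lower tercile: ELANE, neutrophil elastase, stood at 379 CPM there in whole marrow 1 and at 17 CPM in the upper tercile. Called doublets were also most frequent there, with 9, 12 and 10 in the lower and 2, 3 and 0 in the upper tercile of whole marrow 1, 2 and 3. Without called doublets and members at 0.5% or more neutrophil marker UMIs (287, 357 and 199 members), the ratios were 2.62 for HBM, -2.98 for NPM1 and -3.40 for MYB. The median of 4 early progenitor genes at 10 CPM or more moved from -2.07, with 4 lower in all 3 libraries, to -0.87, with 3 lower; with the other totals it was -1.75, with 3 lower and 1 higher.

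Single members spread widely in their cell cycle genes. The median of the mitosis genes was 7490 CPM in whole marrow 1 with a 10th to 90th percentile of 4241 to 12358 CPM, 7121 CPM (3735 to 12219) in whole marrow 2 and 6440 CPM (3601 to 10232) in whole marrow 3. The replication genes had medians of 5276, 5213 and 5062 CPM. Replication UMIs outnumbered mitosis UMIs in 79 of 328, 132 of 381 and 71 of 221 members, or 24.1, 34.6 and 32.1%. Across members the skeleton share and the mitosis share had a Spearman rho of 0.49, 0.41 and 0.39, and the skeleton share and the mitochondrial share one of -0.62, -0.69 and -0.52. These describe members of 1 library, which share its depth and its free RNA, and both sides of each are parts of the same UMI total.

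**Figure D5:**
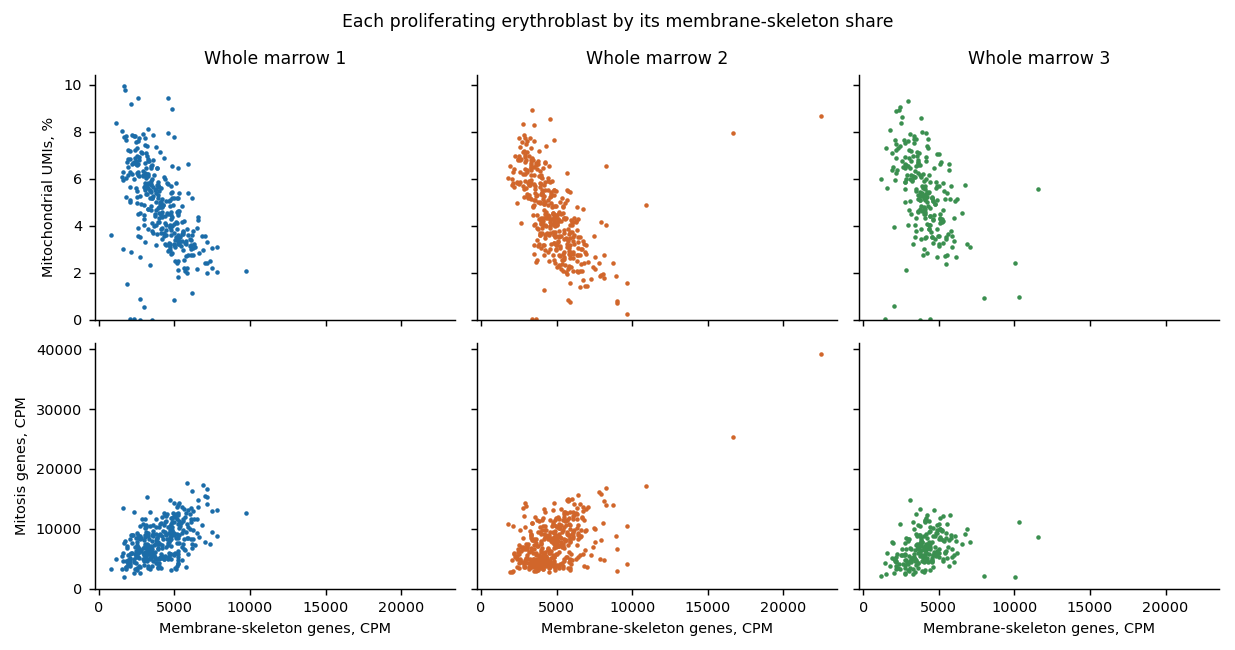
Each member as a point, by the CPM of membrane skeleton genes (horizontal) against the percent of mitochondrial UMIs (upper row) and the CPM of mitosis genes (lower row), 1 column per whole marrow library. The mitochondrial percent falls along the axis and the mitosis level rises, with wide scatter in all 3 libraries.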

How the data were processed

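Single-cell 3' RNA libraries (10x Genomics kit v3.1, 5000 cells targeted) were analysed from the deposited matrices, which hold raw counts of UMIs per feature and barcode with no normalization (20257 features, 15825 with a symbol). The authors made them with Cell Ranger: per the file headers this was version 7.0.1, whereas the submitters' processing notes name 7.1.0 and the build CanFam3.1; the annotation release and the strand setting are not given in the sources used here. A read that 2 overlapping or near-identical genes could share may be lost or misassigned by such counting. Members and gene lists were chosen with earlier results of these data known, so a pattern along them is a description. No list was tested as a set.

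Counts were summed per library and group (at least 20 barcodes) and tested with edgeR 4.0.16 (R 4.3.3, filterByExpr, TMM scaling, robust quasi-likelihood fit, library as a block, Benjamini-Hochberg 0.05); 6 sums left 2 residual degrees of freedom. The same library number pairs the sums because both come from 1 marrow sample and 1 droplet run. The 5 rule genes, and CAMP against myelocytes, are left out of the named genes; sizes and p of leading genes that the groups were cut on are not given. A non-cycling group at 0 UMIs of MKI67 and TOP2A had been planned, but it held only 28, 11 and 10 barcodes; the limit of fewer than 5 UMIs was set after seeing those numbers. Doublets were scored with Scrublet in scanpy 1.11.5 at 0.8% per 1000 barcodes and kept. Alternatives were DESeq2 1.42.0, plain library sizes, no low-count filter, no block, each library left out, other limits of the rule, and barcodes thinned to 2000 UMIs. The scripts were tested on simulated counts. The 10 genes with a symbol, the largest change in each direction past 0.05, the same direction in 3 libraries and 50 CPM in the higher group could be named, as could any listed gene.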

Additional observations from a re-analysis of the deposited data

How the results depend on the processing

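The comparison of members with other erythroblasts depended on the processing. It made 271 calls. The number was 2 without the library as a replicate block (both sums of a library come from 1 sample, so the block pairs them), 90 with DESeq2, 140 without called doublets, 103 with AHSP, HBM and CA1 at 2% or more of UMIs, 163 at 5% mitochondrial UMIs or less, 76 against other erythroblasts with 0 cycle UMIs, and 0 after thinning to 2000 UMIs. It was 251 against other erythroblasts of at least 2000 UMIs (2 libraries), 254 with plain library sizes, 277 with no low-count filter, 295 with 10 or more cycle UMIs and 306 without members at 0.1% CAMP or more. The thinned fit held 2 libraries and 2402 features, of which 131 had an unadjusted p under 0.05. Leaving out each library gave 51 to 259 calls, 51 of them without whole marrow 1, which holds most of the other erythroblasts. Against myelocytes, 6125 calls became 2690 of 3892 tested after thinning and 5488 to 6002 with a library left out; without the replicate block, 2827 were higher and 2407 lower. With plain library sizes 4487 were higher and 2010 lower. Against all other proliferating barcodes, 4 named genes changed direction: CENPF (log2 fold change -0.041), ODC1 (-0.67), SHMT2 (-0.38) and CCND3 (0.010). The mean share of members, 5.96%, was 3.84% with 2% erythroid UMIs required, and 4.79 to 6.70% with a library left out. In the terciles GATA1 changed sign to 0.37 with the other totals and ranged from -0.13 without whole marrow 1 to 0.011 without whole marrow 3, and EPOR changed sign to -0.055 without called doublets and members rich in neutrophil UMIs. The causes were not tested.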

Other observations

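Several genes with no listed role in red cells had higher levels in the members than in the proliferating myelocytes. TSHB, the beta subunit of thyrotropin, stood at 86.8, 91.6 and 91.5 CPM in the members of whole marrow 1, 2 and 3, with 2 UMIs in the myelocyte sums. It went from 47.8 to 123 CPM, from 51.0 to 141 CPM and from 55.2 to 140 CPM from the lower to the upper tercile. MIOX, which opens the ring of inositol, stood at 187, 329 and 283 CPM against 0, 0.360 and 0.953 CPM, and went from 44.2 to 397 CPM, from 86.7 to 656 CPM and from 121 to 511 CPM along the terciles. TBXAS1, thromboxane synthase, stood at 26.6, 43.0 and 30.5 CPM against 0.971, 2.16 and 2.62 CPM, and had a ratio of upper to lower tercile of 2.92 ± 0.52 on the log2 scale. Reads that belong to a neighbouring or overlapping transcript were not told apart here.

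CD79A, a chain of the B cell receptor complex and high in the members without CD79B or MS4A1, stood at 11894 and 11699 CPM in the sorted barcodes and at 2610 to 3222 CPM in the myelocytes. RPS19, a ribosomal protein gene, has no row under that symbol, and it is the next gene to CD79A with 0 genes between them in the assembly UU_Cfam_GSD_1.0, which is not the build of the files. Whether reads of RPS19 are counted under CD79A was not tested.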
